A study of Zea mays with 2 samples.

Results

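Loci of the mitochondrial and chloroplast genomes were described in maize endosperm, the part of the kernel that stores starch and protein. They were chosen by the sequence that the locus string names, with no use of their levels. Of 44119 loci in all, 115 met this rule, 84 of the mitochondrion and 31 of the chloroplast, and 43974 lay on the 10 chromosomes. The series compared endosperm of the opaque2 mutant with endosperm of wild type, both harvested 15 days after pollination. The opaque2 gene encodes a bZIP transcription factor best known for activating storage protein genes of the nucleus. The allele, the line background and the number of kernels or plants per sample were not given in the sources used here. Chromosome loci carry no gene names in the files, so neither the opaque2 gene nor endosperm markers were checked. RNA-seq gave 1 value per locus and genotype, in FPKM, fragments scaled by transcript length and library size, and the triplicates that the design text mentions are not tied to that value. Differences were therefore not checked by replicates and carry no p-value, and depth is unknown because the values hold no counts.

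Plant mitochondria keep a small set of genes for subunits of the respiratory chain and the ATP synthase, for the maturation of cytochrome c, and for part of their ribosomes, while most mitochondrial proteins are encoded in the nucleus. The chloroplast genome, which every plastid type carries, encodes parts of the photosystems, a plastid RNA polymerase and part of the plastid ribosome. In endosperm the plastids are mostly amyloplasts, which store starch and do not photosynthesise. Genes of both genomes are often transcribed together in groups of neighbours, and long precursors are then cut, spliced and edited. Poly(A) tails of organelle RNA mark it for decay, unlike those of nuclear mRNA. Selection for poly(A) tails was neither stated nor denied in the sources used here.

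Positions and names were checked first. Starts in the files count from 0, so 1 was added to each start, and 48 mitochondrial starts then equalled a gene start in RefSeq's table (assembly: Zm-B73-REFERENCE-NAM-5.0), against 0 before. Start and end both matched for 33 mitochondrial and 6 chloroplast loci, and these carry the gene's name here. A further group is described as holding a gene when at least 50% of that gene lay within the locus. By this measure 69 mitochondrial and 30 chloroplast loci held a gene other than a tRNA gene, while 12 mitochondrial loci and 1 chloroplast locus held no gene of the table. A locus that covers less than 50% of a gene counts as holding none, so it may still lie within a gene. Loci of the mitochondrion held 85 of 162 protein-coding reference genes, and loci of the chloroplast held 68 of 111. The build was not given in the sources used here, so names rest on these matches. The other reference genes, cob, cox3 and nad7 of the mitochondrion and rbcL, psaA and psaB of the chloroplast among them, were not analysed here. Chromosomes of plants hold copies of organelle DNA, and the sources used here do not say how reads that match several places were treated.

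By the median of all loci, both organelle genomes stood far above the chromosomes in level, with a small share of the total. The median mitochondrial locus had 26.1 FPKM in the mutant and 25.3 FPKM in the wild type, and the median chloroplast locus 37.9 FPKM in the mutant and 45.2 FPKM in the wild type. The median chromosome locus had 1.586 FPKM in the mutant and 1.614 FPKM in the wild type, and that median includes many low loci. In at least 1 genotype, 5 FPKM was reached by 35.8% of chromosome, 76.2% of mitochondrial and 77.4% of chloroplast loci. The highest chromosome level, 538900 FPKM in the mutant and 598365 FPKM in the wild type, was above that of every organelle locus. A level of 100 FPKM or more in both genotypes was reached by 29 mitochondrial loci (34.5%), 8 chloroplast loci (25.8%) and 1.68% of chromosome loci. Mitochondrial loci were 0.190% of all loci and held 1.302% of all summed FPKM in the mutant and 1.471% in the wild type. Chloroplast loci were 0.0703% of all loci and held 0.1196% of all summed FPKM in the mutant and 0.1378% in the wild type. The size of these shares depended on the total. With the 6 highest loci of the series out of it, the mitochondrial share was 3.28% in the mutant and 3.58% in the wild type, and the chloroplast share was 0.301% in the mutant and 0.336% in the wild type. The log2 ratio of the shares over all loci, opaque2 over wild type, was −0.18 for the mitochondrion and −0.20 for the chloroplast. In such bulk tissue, fewer cells or organelles of a kind and less RNA in each cannot be told apart.

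The direction of the mitochondrial share turned when loci below 300 bp, chromosome loci in the total among them, were left out. Over loci of 300 bp or more the mitochondrial share was 1.808% in the mutant and 1.722% in the wild type, which turns the log2 ratio of shares to 0.07. For the chloroplast the same restriction gave 0.1953% in the mutant and 0.2006% in the wild type (log2 ratio −0.04). Besides short chromosome loci, this restriction removes 1 mitochondrial locus, of 258 bp, and no chloroplast locus. The chloroplast shift thus came from the total alone. The mitochondrial share has the same total, so the same shift from the total applies to it. The removed 258-bp locus, with 4168 FPKM in the mutant and 6135 FPKM in the wild type, raised its ratio further. The removed locus and the total were not run separately.

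**Figure D1:**
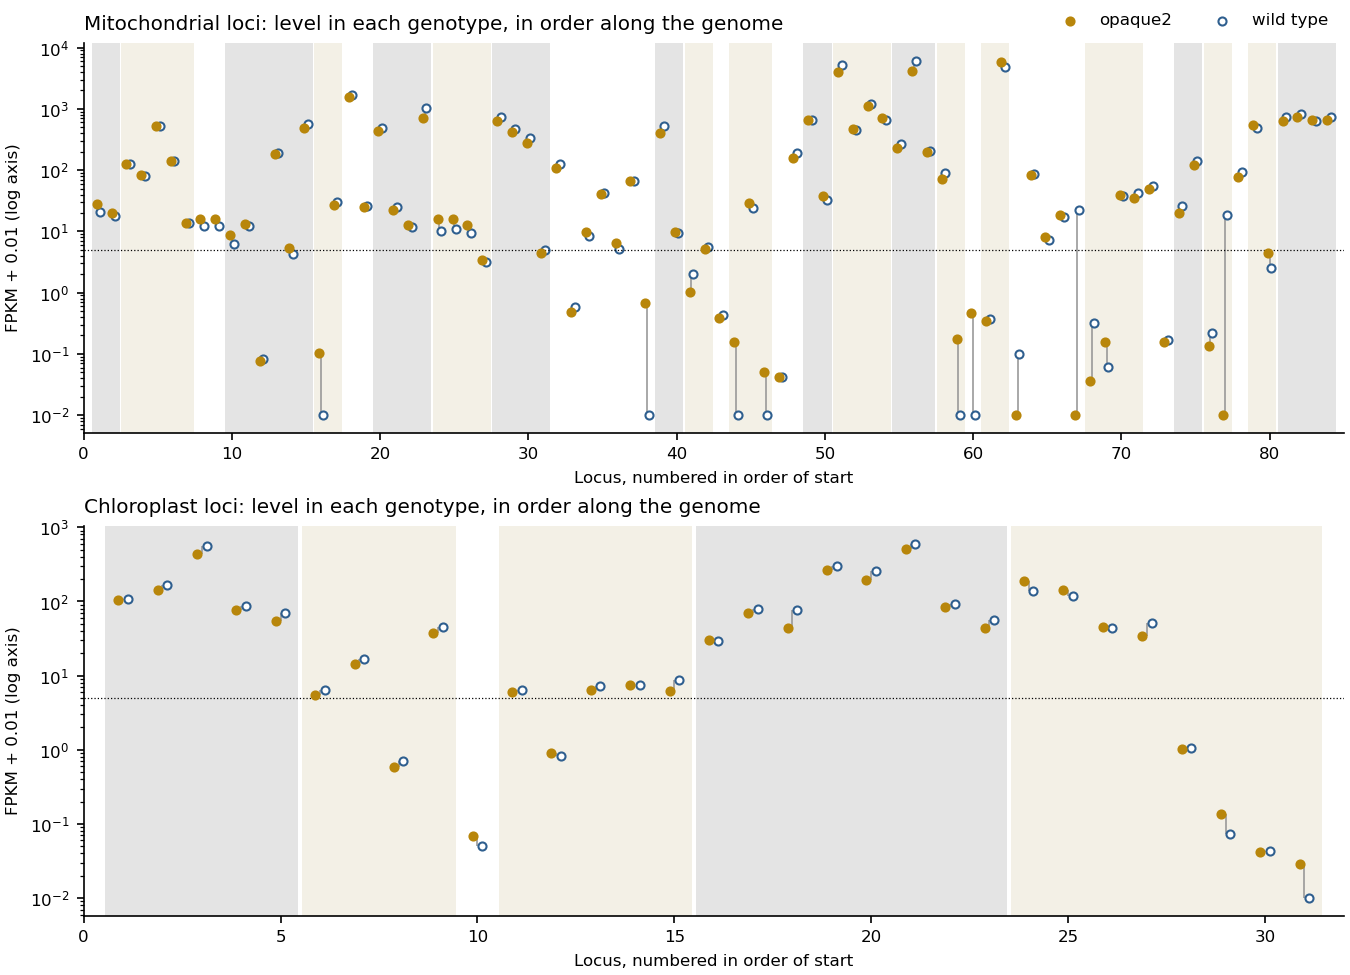
Level of each mitochondrial locus (upper panel) and chloroplast locus (lower panel) in order along its genome, as FPKM plus 0.01 on a log axis, with opaque2 as filled and wild type as open points. Shaded stretches are clusters, the dotted line marks 5 FPKM and points at the bottom are loci listed at 0, and levels differ far more between loci than between genotypes.

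Mitochondrial levels were concentrated in 3 loci, which held 50.1% of the genome's summed FPKM in the mutant and 51.7% in the wild type. Highest by the mean of both genotypes was orf147-b, an open reading frame with no role given by the table, at 356474 to 356917, with 5809 FPKM in the mutant and 4821 FPKM in the wild type (log2 ratio 0.27, pseudocount 1 as in every ratio of levels). It held 20.9% of the mitochondrial sum in the mutant and 15.3% in the wild type. The second, at 266974 to 267231 between orf140-b and mat-r, was a locus of 258 bp that holds no reference gene by the 50% measure. It had 4168 FPKM in the mutant and 6135 FPKM in the wild type (log2 ratio −0.56). The third, at 259447 to 260940, also holds no reference gene and had 3978 FPKM in the mutant and 5307 FPKM in the wild type (log2 ratio −0.42). These 3 were the 3 highest mitochondrial loci in each genotype, but orf147-b had rank 1 in the mutant and rank 3 in the wild type. Among all loci of the series, orf147-b had rank 21 in the mutant and rank 27 in the wild type.

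Genes of known role followed. The order by mean level continued with nad4, rps12, nad9, the higher of a pair of loci at 564155 to 564946 that holds orf120 and orf149-a, nad6, the highest of a group at 111497 to 115826, and, at rank 10, atp6. The 10 highest loci of opaque2 and the 10 highest of wild type had 8 in common, and together the 10 highest by mean held 71.9% of the mitochondrial sum in the mutant and 73.9% in the wild type. At the other end, 16 mitochondrial loci were below 1 FPKM in both genotypes. Across the 64 loci of 5 FPKM or more, log2 levels in the mutant and wild type had a Pearson r of 0.957 and FPKM a Spearman rho of 0.978. These describe 1 library against another, and the points share the library and its scaling.

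Complex I, the first proton pump of the respiratory chain, was the best represented complex. The 7 loci that hold its genes summed to 4089 FPKM in the mutant and 4645 FPKM in the wild type, 14.7% and 14.8% of the mitochondrial sum. Their log2 ratios ran from −0.55 to 0.09, with 2 above and 5 below 0, of which the nad4L locus (−0.01) turned above 0 when ratios were centred on the median of all loci. Nad4 led the group at 1592 FPKM in the mutant and 1677 FPKM in the wild type. Levels of nad3, nad6 and nad9 were near each other in the mutant, at 707, 662 and 702 FPKM, and in the wild type nad9 stood higher, at 1029 FPKM against 663 FPKM for nad3 and 728 FPKM for nad6. The lower level of nad9 in the mutant (log2 ratio −0.55) was the widest difference among genes of known role past 5 FPKM in the mitochondrion. The gene nad5 lies in 2 loci of 1 position, and its higher locus had 404 FPKM in the mutant and 524 FPKM in the wild type (log2 ratio −0.38). A locus that holds nad4L, with 2 open reading frames, was far lower, with 13.5 FPKM in the mutant and 13.7 FPKM in the wild type.

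Subunits of the later complexes were uneven. Complex IV, the cytochrome c oxidase, was represented by cox2, in a locus of 78.5 FPKM in the mutant and 91.9 FPKM in the wild type, and by cox1, in a locus of 0.341 FPKM in the mutant and 0.362 FPKM in the wild type. The cox1 locus, which carries the core subunit of the enzyme, ends 22 bp before orf147-b, the highest mitochondrial locus in the mutant and by the mean of both genotypes. For the ATP synthase, atp6 had 627 FPKM in the mutant and 749 FPKM in the wild type (log2 ratio −0.26). The locus with atp1-a2 had 0.123 FPKM in the mutant and 0.213 FPKM in the wild type, and the locus with atp8 had 0.0312 FPKM in the mutant and 0.0317 FPKM in the wild type. Loci of 1 complex thus differed by orders of magnitude in FPKM in both genotypes. Read sharing with copies was not tested for these loci.

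Cytochrome c maturation genes attach heme to the protein. Their main locus, which holds ccmFC, had 444 FPKM in the mutant and 487 FPKM in the wild type, and the main locus with ccmFN and rps1 had 72.4 FPKM in the mutant and 89.2 FPKM in the wild type (log2 ratio −0.30). The gene ccmC had 0.667 FPKM in the mutant and was listed at 0 in the wild type. Among ribosomal protein genes, rps12 had 1107 FPKM in the mutant and 1210 FPKM in the wild type, rps4 had 81.9 FPKM in the mutant and 80.4 FPKM in the wild type, and the locus with rpl16 and rps3 had 40.8 FPKM in the mutant and 41.7 FPKM in the wild type. The gene rps2A was at 0.0263 FPKM in the mutant and 0.312 FPKM in the wild type, below the floor in both. The locus with mat-r, a maturase that acts in intron splicing, had 199 FPKM in the mutant and 205 FPKM in the wild type, and orfX, a gene of a membrane transport protein known from other plants as mttB, had 48.8 FPKM in the mutant and 55.7 FPKM in the wild type.

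**Figure D2:**
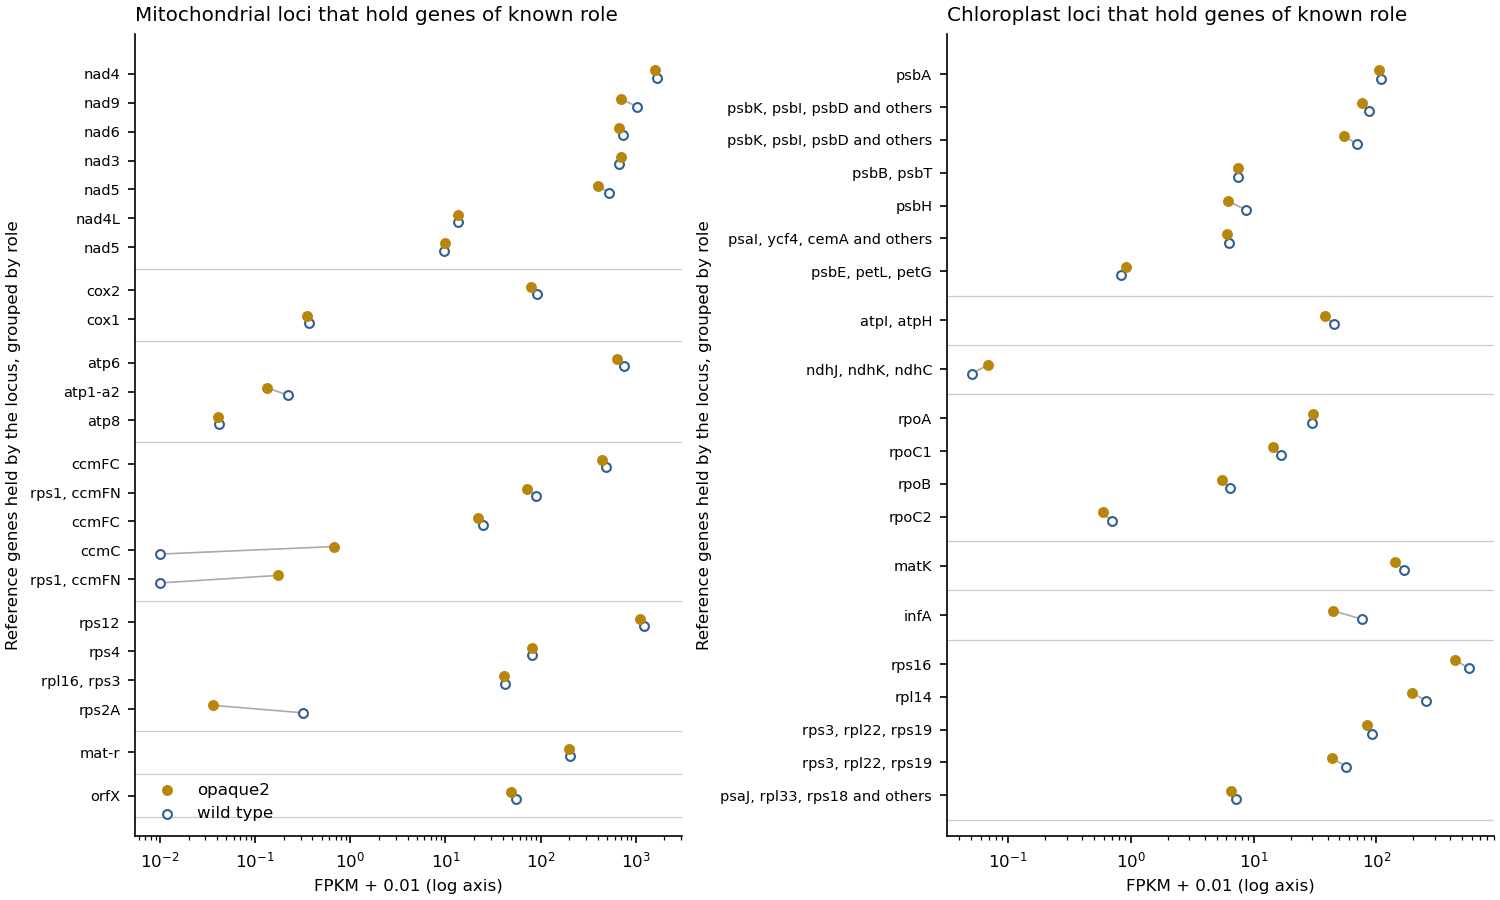
Level of loci that hold genes of known role in the mitochondrion (left) and the chloroplast (right), as FPKM plus 0.01 on a log axis, with opaque2 above (filled) and wild type below (open) in each row. Rows are grouped by role, a gene named in 2 rows lies in 2 loci of 1 position, and within the ATP synthase atp6 stands at 627 FPKM in the mutant and 749 FPKM in the wild type while the loci with atp1-a2 and atp8 are below 1 FPKM.

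Open reading frames of unknown role made up most of the named loci. Of the 33 loci with an exact match, 23 are such frames, and their median level was 20.1 FPKM in the mutant and 18.1 FPKM in the wild type, against 644 FPKM in the mutant and 696 FPKM in the wild type for the other 10. Past 5 FPKM, 10 of 17 frames had a ratio above 0 and 7 below, with a median log2 ratio of 0.10, and the other named genes had 2 above and 6 below, with a median of −0.13. Of these, orf160-a (−0.02) turned above 0 under the same centring. Highest after orf147-b were orf140-b, with 232 FPKM in the mutant and 265 FPKM in the wild type, and orf191, with 156 FPKM in the mutant and 192 FPKM in the wild type. Next came orf160-a with 66.3 FPKM in the mutant and 67.3 FPKM in the wild type. The frames orf275, orf106-c, orf119-c, orf131-a, orf911, orf387, orf117-c, orf734, orf163, orf116-b, orf104-a, orf110-b and orf126-c lay between 5.16 and 39.6 FPKM in the mutant and between 5.54 and 42.5 FPKM in the wild type. Below 5 FPKM were orf121-c, orf165, orf99-d, orf138-b, orf302 and orf417.

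Loci that hold a frame without matching it added further values, and 46 loci were grouped as open reading frames in all. Together they summed to 11876 FPKM in the mutant and 11354 FPKM in the wild type, 42.6% and 36.1% of the mitochondrial sum, and without orf147-b the sum of the mutant was the lower of both. The locus with orf1159 and orf115-d had 669 FPKM in the mutant and 660 FPKM in the wild type, the locus with orf99-a1 had 484 FPKM in the mutant and 557 FPKM in the wild type, and the locus with orf179 had 462 FPKM in the mutant and 459 FPKM in the wild type. These frames of unknown role thus stood near atp6 and the higher nad5 locus in level. Of the 36 loci of this group past the floor, 19 had a ratio above 0 and 17 below, orf160-a and the locus with orf116-a and orf248 (−0.0023) turning above 0 under that centring.

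Loci without any reference gene held a large part of the sum. These 12 summed to 8961 FPKM in the mutant and 12197 FPKM in the wild type, 32.2% and 38.8% of the mitochondrial sum, most of it in the 2 loci already described. Another, at 548031 to 548695, had 542 FPKM in the mutant and 483 FPKM in the wild type (log2 ratio 0.17). Next was a locus at 24646 to 25498 with 140.3 FPKM in the mutant and 139.7 FPKM in the wild type. Of the 12, 8 passed the floor, with 4 ratios above and 4 below 0, and the other 4 were below 1 FPKM. The 3 loci that hold only tRNA genes reached 182 FPKM in the mutant and 190 FPKM in the wild type at most.

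No mitochondrial locus was 2-fold higher in the mutant, and 2 of the 64 loci of 5 FPKM or more were 2-fold lower. Over all 15833 loci of the series past this floor, 7.91% differed 2-fold in either direction and 3.84% were lower, so the mitochondrial share lower was near that of all loci. Both lower loci were listed at 0 in the mutant, where a 0 may stand for an estimate that failed, and they get no fold. One, at 456574 to 457383, holds orf193-a1 and had 22.8 FPKM in the wild type. The other, at 525511 to 526320, holds orf193-a2 and had 18.6 FPKM in the wild type. The table names these as copies of 1 frame, both loci span 810 bp, and reads of one may be counted for the other. The values therefore cannot be taken as independent. Among loci above 0 in both genotypes, 0 of 62 differed 2-fold, which follows from leaving these 2 loci out. The share over all loci under the same filter was not computed.

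Loci listed at 0 in a single genotype were otherwise low in the other genotype. In the mitochondrion 6 loci were at 0 in the wild type alone, ccmC, orf138-b and orf302 among them, and none of the 6 exceeded 0.667 FPKM in the mutant. Besides the orf193 loci, orf417 was at 0 in the mutant and had 0.0901 FPKM in the wild type. In the chloroplast a single locus, at 91653 to 131084, was at 0 in the wild type and had 0.0185 FPKM in the mutant.

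Past the floor and above 0 in both genotypes, the mitochondrial log2 ratios were narrow, from −0.56 to 0.60. Their median over all 64 loci was −0.04, with quartiles at −0.20 and 0.12, while chromosome loci had a median of −0.04 with quartiles at −0.26 and 0.20. The 3 highest ratios belonged to orf116-b, with 15.9 FPKM in the mutant and 10.11 FPKM in the wild type (log2 ratio 0.60), to the locus with orf117-a, with 15.9 FPKM in the mutant and 10.9 FPKM in the wild type (0.51), and to orf387, with 28.4 FPKM in the mutant and 20.6 FPKM in the wild type (0.45). A locus at 40909 to 41549 with no reference gene (0.44) and the locus with orf122 and orf114-a (0.39) followed. The lowest ratios above a value of 0 were those of the 258-bp locus (−0.56), nad9 (−0.55), the locus at 259447 to 260940 (−0.42), the higher nad5 locus (−0.38) and orf117-c, with 20.3 FPKM in the mutant and 26.0 FPKM in the wild type (−0.34). At 1.5-fold in place of 2-fold, where 17.4% of all loci passed, orf116-b was the only mitochondrial locus that joined the 2 listed at 0.

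Direction in the mitochondrion went with level. Of the 19 loci past the floor with a mean below 20 FPKM, 15 were higher in the mutant and 4 lower, 2 of these being the loci listed at 0, and the median log2 ratio was 0.16. Of the 45 loci with a mean of 20 FPKM or more, 13 were higher in the mutant and 32 lower, with a median of −0.13. On the chromosomes, 42.3% of loci below 20 FPKM were higher in the mutant (median −0.06) and 51.7% of those of 20 FPKM or more (median 0.02). The mitochondrial split thus ran opposite to that of the chromosomes in these libraries. Between 20 and 100 FPKM 5 of 16 mitochondrial loci were higher in the mutant, between 100 and 500 FPKM 2 of 13, and from 500 FPKM 6 of 16. The division at 20 FPKM was made after the values were seen, and loci of 1 genome share their source.

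**Figure D3:**
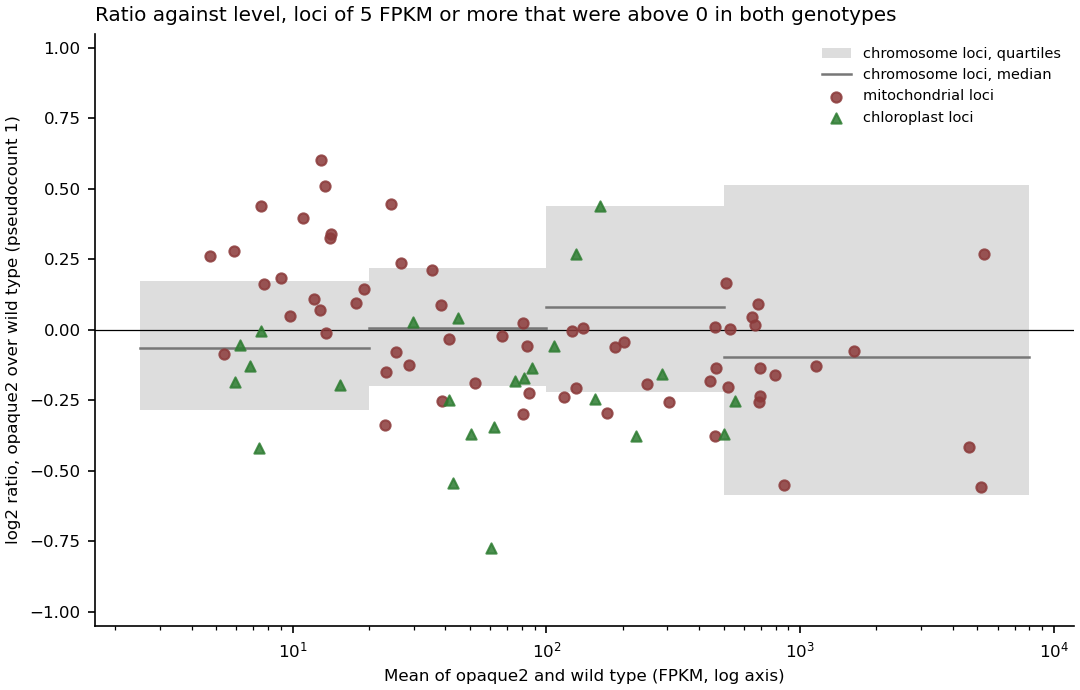
Log2 ratio of opaque2 over wild type against the mean level of each locus on a log axis, for 62 mitochondrial loci (circles) and 24 chloroplast loci (triangles) of 5 FPKM or more that were above 0 in both genotypes. Grey bands and lines are the quartiles and median of chromosome loci in 4 ranges of level, and mitochondrial points below 20 FPKM lie mostly above 0 while chloroplast points lie mostly below 0.

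In the chloroplast, 3 loci held 47.4% of the genome's summed FPKM in the mutant and 49.9% in the wild type, and the 10 highest loci were the same 10 in both genotypes. The highest, at 79519 to 79881, starts where rpl16, a gene of the large ribosomal subunit, starts in the table, covers less than 50% of that gene, and had 506 FPKM in the mutant and 603 FPKM in the wild type (log2 ratio −0.25). The second, which holds rps16 of the small subunit, had 438 FPKM in the mutant and 567 FPKM in the wild type (log2 ratio −0.37). Rpl14, also of the large subunit and among the 10 highest, had 197 FPKM in the mutant and 255 FPKM in the wild type (log2 ratio −0.37). The levels of these loci exceeded that of the locus with psbA, which encodes the core D1 protein of photosystem II and had 105 FPKM in the mutant and 109 FPKM in the wild type. The locus with matK, a plastid maturase, had 142 FPKM in the mutant and 169 FPKM in the wild type.

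The 7 loci grouped by ribosomal protein genes summed to 1108 FPKM in the mutant and 1358 FPKM in the wild type, 43.3% and 46.1% of the chloroplast sum. The group leaves out the long span described last and the highest locus, which shares its start with rpl16. That locus held 19.8% of the chloroplast sum in the mutant and 20.5% in the wild type. All 7 grouped loci were lower in the mutant, with log2 ratios from −0.37 to −0.13. The 7 loci grouped by genes of the photosystems and the cytochrome b6f complex summed to 257 FPKM in the mutant and 288 FPKM in the wild type. Of these, 6 passed 5 FPKM, and all 6 had ratios below 0, from −0.42 to −0.0024, the last being that of psbB with psbT, which turned above 0 when ratios were centred on the median of all loci. Apart from psbA and the 2 loci with psbD and psbC, none of them exceeded 7.47 FPKM in the mutant or 8.62 FPKM in the wild type, the locus with psbH being lowest in ratio, with 6.20 FPKM in the mutant and 8.62 FPKM in the wild type (log2 ratio −0.42). The locus with atpI and atpH, of the plastid ATP synthase, had 37.9 FPKM in the mutant and 45.2 FPKM in the wild type. The locus with ndhJ, ndhK and ndhC, of the NADH dehydrogenase-like complex, had 0.0583 FPKM in the mutant and 0.0405 FPKM in the wild type.

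The 4 genes of the plastid RNA polymerase, which transcribes part of this genome, differed in level. The locus with rpoA had 30.2 FPKM in the mutant and 29.6 FPKM in the wild type, rpoC1 had 14.3 FPKM in the mutant and 16.6 FPKM in the wild type, rpoB had 5.508 FPKM in the mutant and 6.401 FPKM in the wild type, and rpoC2 had 0.581 FPKM in the mutant and 0.691 FPKM in the wild type. In both genotypes the rpoA locus, which lies among ribosomal protein genes, was thus above the 3 neighbours rpoB, rpoC1 and rpoC2. The gene infA, of translation initiation factor 1, had 44.5 FPKM in the mutant and 76.7 FPKM in the wild type. Its log2 ratio of −0.77 was the lowest of the genome and the only one in the chloroplast past 1.5-fold.

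None of the 24 chloroplast loci of 5 FPKM or more differed 2-fold, against the 7.91% of all loci given above. With 1 value per genotype there was no test and no unadjusted p to set beside this count of 0. Ratios were below 0 for 20 loci and above 0 for 4, while 45.7% of chromosome loci past the floor were above 0. The median log2 ratio was −0.18, with quartiles at −0.35 and −0.06, against −0.04, −0.26 and 0.20 for chromosome loci. Of the 4 loci above 0, the locus with rpoA had a ratio of 0.03 and the other 3 share the position 91653 to 131084.

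Neighbouring loci were joined into clusters where the gap between them was at most 2000 bp. In the mitochondrion 61 loci fell into 20 such clusters, 17 of them with more than 1 position, and the clusters held 91.8% of the mitochondrial sum in the mutant and 92.2% in the wild type. By summed FPKM, 7 clusters were higher and 13 lower in the mutant. The highest in sum held the locus at 259447 to 260940, a locus with orf179, rps12 and nad3 within 3.72 kb, with 6253 FPKM in the mutant and 7639 FPKM in the wild type (log2 ratio −0.29). Within it the rps12 and nad3 loci, 44 bp apart, had ratios of −0.13 and 0.09. The next 2 changed places between the genotypes. The cluster of orf147-b and cox1 was second in the mutant, with 5810 FPKM in the mutant and 4821 FPKM in the wild type (0.27), of which nearly all lay in orf147-b, and the cluster of orf140-b, the 258-bp locus and mat-r was second in the wild type, with 4599 FPKM in the mutant and 6606 FPKM in the wild type (−0.52). In that cluster the 258-bp locus decided the ratio, since orf140-b (−0.19) and mat-r (−0.04) were nearer to 0.

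Within clusters, levels and ratios were alike in some cases and not in others. In the cluster of atp6, orf120 with orf149-a, and nad6, 4 loci within 2.94 kb lay between 627 and 751 FPKM in the mutant and between 637 and 838 FPKM in the wild type, and summed to 2698 FPKM in the mutant and 2952 FPKM in the wild type (log2 ratio −0.13). Their own ratios ran from −0.26 for atp6 to 0.05 for the lower locus of orf120 with orf149-a. The cluster from 17207 to 27883, with rps4 and nad4L, had 5 loci whose ratios all lay between −0.01 and 0.03 although their levels ran from 13.5 to 528 FPKM in the mutant and from 13.7 to 526 FPKM in the wild type. The cluster of orf116-b, orf117-a, orf122 and orf114-a stood out in the other direction. Its 3 loci past the floor had ratios of 0.39 to 0.60, and its sum was 47.8 FPKM in the mutant and 33.5 FPKM in the wild type (0.50). The cluster of ccmFC, orf104-a and nad9 had a sum of 1180 FPKM in the mutant and 1553 FPKM in the wild type (−0.40), with nad9 the lowest of its ratios.

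In the chloroplast 30 of 31 loci fell into 5 clusters, 4 of them with more than 1 position. By their sums 4 were lower and 1 higher in the mutant. The higher one consists of 8 loci at the single position 91653 to 131084. The cluster from 75428 to 82913 is a run of ribosomal protein genes with rpoA and infA, in an order that plastids share with the ribosomal protein operons of bacteria. Its 8 loci within 7.49 kb summed to 1244 FPKM in the mutant and 1493 FPKM in the wild type (log2 ratio −0.26), 48.6% and 50.7% of the chloroplast sum, and 7 of the 8 were below 0. Neighbours in it were still unequal in level. The infA locus, at 44.5 FPKM in the mutant and 76.7 FPKM in the wild type, stood below rpl14, at 197 FPKM in the mutant and 255 FPKM in the wild type. The cluster of psbA, matK, rps16 and the photosystem II genes had 817 FPKM in the mutant and 1001 FPKM in the wild type (−0.29), and all 5 of its loci were below 0. The rpoB, rpoC1, rpoC2 and atpI cluster (58.3 FPKM in the mutant and 68.8 FPKM in the wild type, −0.24) and the cluster from psaI to psbH (27.1 FPKM in the mutant and 30.4 FPKM in the wild type, −0.16) had no locus past the floor above 0.

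**Figure D4:**
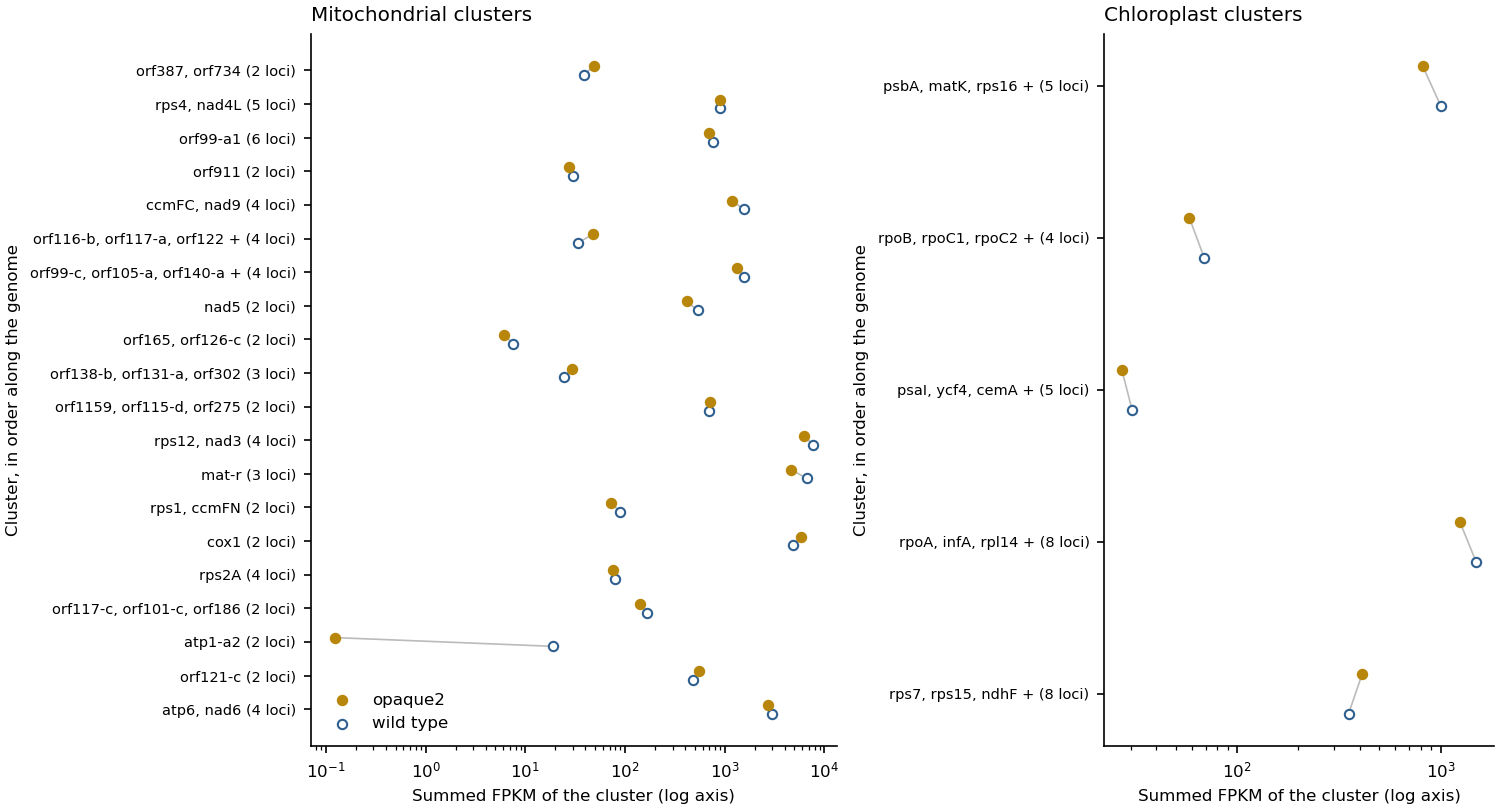
Summed FPKM of each cluster of neighbouring loci on a log axis, in the mitochondrion (left) and the chloroplast (right), in order along the genome, with opaque2 above (filled) and wild type below (open). Labels give up to 3 reference genes, those of known role first, and the cluster with atp1-a2 lies apart because its locus with orf193-a2 was listed at 0 in the mutant.

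Several loci had the same start and end. In the mitochondrion 16 loci shared 7 positions, and in the chloroplast 12 loci shared 3. No other organelle loci overlapped. Loci of 1 position cannot be assigned to single genes of the span, and the split of reads among them was not given in the sources used here. In 5 of these 7 mitochondrial positions 1 locus held at least 74.6% of the sum in each genotype. At nad5 the 2 loci had 404 and 9.91 FPKM in the mutant and 524 and 9.56 FPKM in the wild type, and at ccmFC 444 and 22.1 FPKM in the mutant and 487 and 24.6 FPKM in the wild type. The other 2 positions were split more evenly. At 111497 to 115826, a span of 4.33 kb with 6 open reading frames, 4 loci had 639, 414, 277 and 4.51 FPKM in the mutant and 751, 470, 331 and 4.99 FPKM in the wild type, so the order was the same in both genotypes. Its 3 loci past the floor had log2 ratios of −0.26 to −0.18. At the position of orf120 and orf149-a the 2 loci had 751 and 659 FPKM in the mutant and 838 and 637 FPKM in the wild type, with ratios of −0.16 and 0.05.

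The chloroplast position 91653 to 131084 carried 8 loci over 39.4 kb. The span holds 44 reference genes, 11 of tRNA and 8 of rRNA among them, and starts and ends in the inverted repeat, of which plastid genomes carry 2 copies, with the small single-copy region and its ndh genes between. Levels of the 8 loci were 187, 143, 45.7, 34.7, 1.01, 0.128, 0.03225 and 0.0185 FPKM in the mutant, and in the same order 138, 118, 44.4, 51.0, 1.04, 0.0642, 0.0337 and 0 FPKM in the wild type. The 4 loci past the floor had log2 ratios of 0.44, 0.27, 0.04 and −0.54, the widest spread at any shared position of the organelles. Their sum with the other 4 was 412 FPKM in the mutant and 353 FPKM in the wild type (log2 ratio 0.22). This span thus held 16.1% of the chloroplast sum in the mutant and 11.98% in the wild type, and it was the chloroplast cluster with a sum higher in the mutant. At the other 2 shared chloroplast positions, that of psbD and psbC and that of rps3, rpl22 and rps19, each of the 4 loci was lower in the mutant, with ratios of −0.37 to −0.13.

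**Figure D5:**
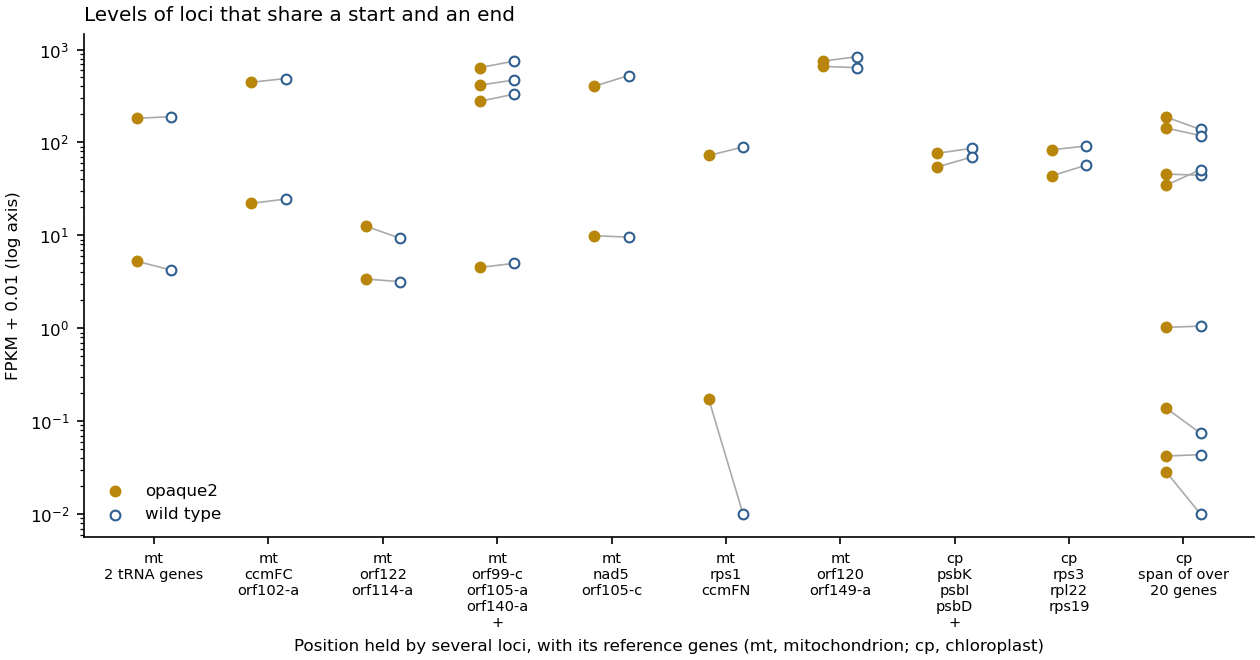
Levels of the 28 loci that share a start and an end with another locus, as FPKM plus 0.01 on a log axis, at 7 mitochondrial and 3 chloroplast positions, with opaque2 left (filled) and wild type right (open) and lines joining the values of a locus. At the chloroplast span of 44 genes the 2 highest loci are higher in the mutant, and the locus at 34.7 FPKM is lower.

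Besides the orf193 loci, which were both at 0 in the mutant and had 22.8 and 18.6 FPKM in the wild type, 1 pair of loci held copies of the same genes. The table marks some genes as copies by the endings a1 and a2. A locus with trnD-a1 and trnN-a1-ct had 13.1 FPKM in the mutant and 12.5 FPKM in the wild type, while the locus with trnD-a2 and trnN-a2-ct had 108 FPKM in the mutant and 128 FPKM in the wild type. The locus with the higher level is longer and also holds orf101-b, and reads of the copies may be shared. The ending ct marks stretches of chloroplast origin in the mitochondrial genome. The locus with orf227-ct had 6.55 FPKM in the mutant and 5.22 FPKM in the wild type, and which genome its reads came from was not tested.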

How the data were processed

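Endosperm RNA of 1 opaque2 sample and 1 wild type sample was analysed, and genotypes were taken from the labels. The labels describe Trizol extraction, a column clean-up and DNase I treatment. Values are FPKM as the authors deposited them, per the file headers, and Bowtie 0.12.2 is named per the submitters' processing notes. What it did, which program gave FPKM, and the build and annotation were not given in the sources used here.

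Ratios are log2 of opaque2 over wild type after a pseudocount of 1 was added to both, which understates ratios of low loci. A locus was called different at 2-fold with 5 FPKM or more in the higher genotype. The step was run on simulated data with planted changes larger than the rule asks, which checks the code and not the calls made here. Sums and shares use all loci as deposited. Sums of clusters, roles and positions use the same pseudocount in their ratios. Gene names came from exact matches of start and end to the RefSeq table, or from reference genes of which at least 50% lay within a locus. The text names the 10 highest loci of each genome, the 5 highest and 5 lowest ratios, loci past the rule or at 0 in a single genotype, and all loci with a matched name. Some chloroplast genes are not reported here. The members, lists, floor and level ranges were chosen with earlier results of these data known. Alternatives were other scalings, pseudocounts, floors, folds, gaps and filters. Python 3.11.15, NumPy 2.4.6, pandas 2.3.3 and Matplotlib 3.10.9 were used.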

Additional observations from a re-analysis of the deposited data

How the results depend on the processing

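Shares and ratios were read as moved past 1.5-fold, having no replicate spread. The count of 2 mitochondrial loci past the 2-fold rule became 1 with a floor of 20 FPKM and 0 over loci above 0 in both genotypes, and was 2 or 3 in the other alternatives. The chloroplast count of 0 became 1 at 1.5-fold and was 0 in the other alternatives. The chloroplast median log2 ratio lay between −0.21 and −0.13. For the mitochondrion it ran from −0.13 to 0.01, turning sign where totals were made equal with the 6 highest loci left out. That scaling and centring moved the median of all loci by 0.04 each, and changed the sign of 5 and 4 mitochondrial ratios and of 1 chloroplast ratio each, none of them beyond 0.04 in size as reported. Other pseudocounts moved only the ratios of the 2 loci listed at 0 in the mutant by over 1.5-fold. Among the alternatives for the shares, the restriction to loci of 300 bp or more turned the mitochondrial direction. With the 6 highest loci out of the total, both shares moved by over 1.5-fold in size, to 3.28% in the mutant and 3.58% in the wild type for the mitochondrion and to 0.301% in the mutant and 0.336% in the wild type for the chloroplast, and stayed lower in the mutant. The same held on leaving out the 3 highest loci of each genome, which was added once the data had been seen, with 0.650% in the mutant and 0.710% in the wild type for the mitochondrion and 0.0629% in the mutant and 0.0690% in the wild type for the chloroplast. Clusters numbered 14 to 20 in the mitochondrion and 4 to 7 in the chloroplast. Counts by level were run as alternatives chosen after seeing the data. Below 20 FPKM, loci higher in the mutant were 15 of 19 as reported. They were 13 of 17 with loci of 1 position summed, and 17 of 23 with a floor of 1 FPKM. Without a floor, which adds loci near 0, they were 24 of 39. At 20 FPKM or more they were 13 of 45 as reported, 12 of 41 with loci of 1 position summed, and up to 17 of 45 under other scalings. No paired analysis was possible because a single value stood for each genotype. Depth is unknown, so what it limits was not measured.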
